A study of Homo sapiens with 10 samples.

Results

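MAP2 and 6 related genes of microtubule-associated proteins (MAP1A, MAP1B, MAP1S, MAP4, MAP7 and MAPT) were followed by each of their probes on a bead array of 48803 probes. Every probe that the platform annotation gives to 1 of these 7 genes was taken, which gave 15 of the 48803. MAP2 had 4 probes, MAPT had 4, MAP4 and MAP7 had 2 each, and MAP1A, MAP1B and MAP1S had 1 each. The set was chosen by the measured treated against control difference of 2 MAP2 probes, known to be higher in treated cells, so differences between the groups are given for its members as a description, with no test.

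The cells were NCI-H441, an established human lung adenocarcinoma line. Control cells (5 arrays) received the vehicle DMSO at 0.1% for 12 h; the sample labels call them untreated. Treated cells (5 arrays) received the small molecule CLEFMA, studied in this series for oxidative stress and necrosis, at 1 µM in the same vehicle for the same time. The labels give 5 replicates per group in one place, 4 wells in another and 3 biological replicates in yet another. Nothing states that each array was a separate culture, so every p-value below measures only the spread between these arrays, which may be technical. All 11 measured markers of lung adenocarcinoma epithelium, among them EPCAM, KRT18, NKX2-1 and SFTPB, were above background on all 10 arrays.

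Microtubules are hollow polymers of tubulin that give a cell its shape, carry its motor traffic and build the spindle. Microtubule-associated proteins bind along the polymer, stabilise or bundle it, and regulate where motors run. MAP2 and tau, the product of MAPT, share a microtubule-binding repeat domain with MAP4; MAP2 is best known in the dendrites and cell bodies of neurons and tau in axons, while MAP4 is found in most other cells. MAP1A and MAP1B are large neuronal proteins cleaved into heavy and light chains, and MAP1S is their small, widely expressed relative. MAP7, also called ensconsin, is found in epithelia and recruits kinesin-1 to microtubules.

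MAP2 lies on chromosome 2 of GRCh38.p14, at chr2:209424047-209734112, and has 90 RefSeq transcripts. Because these begin at more than 1 place, 3 promoter windows from RefSeq were at hand for MAP2. Each runs from 250 bases before a transcript start to 50 bases after it. None covers the first base of the gene span above, so the bases around that start were not searched. The windows that begin at 209579082 and 209579357 overlap. The 3 MAP2 windows are printed here because MAP2 is the gene whose signal differed. A MAP1A window is added only as an example of the marked letters, and was picked because it holds them. All are 5′ to 3′ on the gene's own strand, which is the plus strand of GRCh38.p14 for both genes. Capitals mark the letters TGACNNNGC, the core of the antioxidant response element, on either strand.
MAP2 window at chr2:209579082-209579381: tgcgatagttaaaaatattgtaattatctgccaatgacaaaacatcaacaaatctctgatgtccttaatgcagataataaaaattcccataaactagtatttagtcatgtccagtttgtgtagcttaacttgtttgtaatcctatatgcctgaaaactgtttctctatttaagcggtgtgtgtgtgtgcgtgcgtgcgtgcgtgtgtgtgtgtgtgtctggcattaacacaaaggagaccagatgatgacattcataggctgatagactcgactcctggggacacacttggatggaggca
MAP2 window at chr2:209579357-209579656: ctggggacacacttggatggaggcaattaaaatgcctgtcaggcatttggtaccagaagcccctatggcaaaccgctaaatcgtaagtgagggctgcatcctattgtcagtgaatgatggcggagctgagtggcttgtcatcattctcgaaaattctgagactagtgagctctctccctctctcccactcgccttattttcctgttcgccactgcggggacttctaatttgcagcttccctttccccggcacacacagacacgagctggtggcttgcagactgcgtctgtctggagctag
MAP2 window at chr2:209661246-209661545: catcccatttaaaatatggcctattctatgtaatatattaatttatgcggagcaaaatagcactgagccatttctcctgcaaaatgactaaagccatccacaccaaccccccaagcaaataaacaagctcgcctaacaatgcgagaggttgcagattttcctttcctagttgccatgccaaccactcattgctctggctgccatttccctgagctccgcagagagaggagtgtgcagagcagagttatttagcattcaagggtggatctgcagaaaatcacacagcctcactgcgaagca
MAP1A window at chr15:43517358-43517657: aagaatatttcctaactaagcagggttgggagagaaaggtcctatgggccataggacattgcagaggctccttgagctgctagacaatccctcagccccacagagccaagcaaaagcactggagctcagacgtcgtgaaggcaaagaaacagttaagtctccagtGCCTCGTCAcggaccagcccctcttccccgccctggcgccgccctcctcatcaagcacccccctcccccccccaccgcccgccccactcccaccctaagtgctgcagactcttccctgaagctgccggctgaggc

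The 3 MAP2 windows held no TGACNNNGC on either strand. Nor did they hold TGANTCA on either strand, a loose form of the AP-1 site that allows any middle base. Their GC contents were 40.0%, 52.3% and 45.3%, each under the median of 58.7% over all 35116 promoter windows. Of the 14 windows of the 6 member genes that the table holds (MAPT is not among them), 2 (14.3%) held TGACNNNGC, against 13.3% of all 35116 windows. They were the MAP1A window above, where GCCTCGTCA begins 85 bases before the start, and a MAP4 window, where GCTGTGTCA begins 132 bases before the start. TGANTCA was in 0 of the 14 windows and in 7.71% of all windows. A match is a run of letters, not a shown binding site, and its absence speaks only for these bases.

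The MAP2 signal was about 6 times as high in treated as in control cells by 2 of the 4 MAP2 probes. Signals here are log2 of the deposited value in linear units plus an offset of 3 units, quantile normalized between arrays, and differences are treated minus control on that log2 scale. The probe ILMN_1764201, annotated to the MAP2 transcript NM_031845, read 3.40, 3.38, 2.99, 3.62 and 3.80 on controls 1 to 5. On treated arrays 1 to 5 it read 5.80, 6.03, 5.74, 5.81 and 6.85. Every treated array lay above every control array, and the lowest treated value exceeded the highest control value by 1.93. Means were 3.44 ± 0.30 in control and 6.05 ± 0.46 in treated cells (SD, n = 5), a difference of 2.61 ± 0.22 (SE) or 6.09-fold.

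The second such probe, ILMN_2388484, annotated to NM_002374, read 3.28, 3.50, 2.78, 3.55 and 3.70 on controls 1 to 5 and 5.50, 5.91, 5.73, 5.72 and 6.91 on treated arrays 1 to 5. Its groups were also apart, by 1.79 between the nearest values. Means were 3.36 ± 0.36 and 5.95 ± 0.55 (SD, n = 5), a difference of 2.59 ± 0.26 (SE) or 6.02-fold. Among the 44606 probes kept by the filter on low values, these MAP2 probes ranked at positions 5 and 7 by the size of the rise. Treated 5 was the highest array for both, and control 3 the lowest. Control 5 was the highest control array for both, at 3.80 and 3.70. Between the arrays numbered 5 the differences were 3.05 and 3.21, and between those numbered 1 to 4 they were 2.50 and 2.44.

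**Figure D1:**
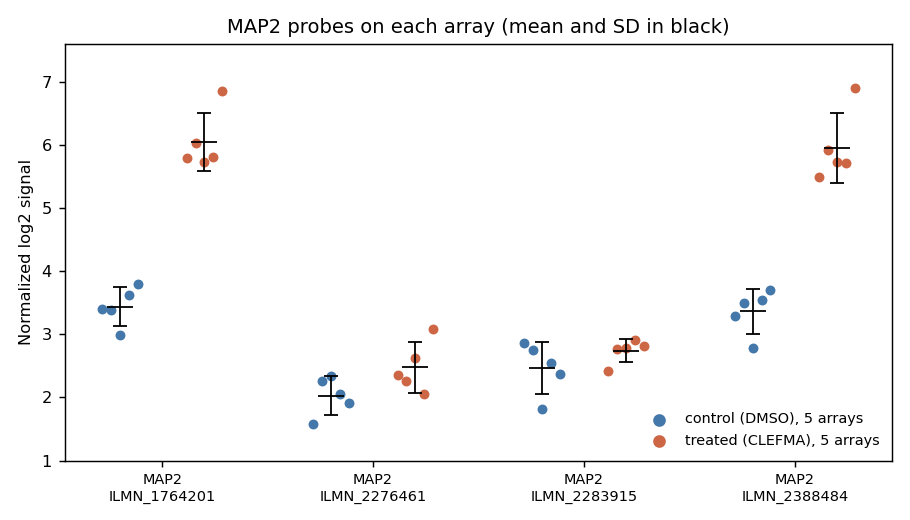
Normalized log2 signal of the 4 MAP2 probes on each array; points are arrays, bars the mean and SD of 5 control (blue) or 5 treated (orange) arrays. For ILMN_1764201 and ILMN_2388484 every treated array lies above every control array, with treated 5 at 6.85 and 6.91; for ILMN_2276461 and ILMN_2283915 the groups overlap.

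The size of the MAP2 fold moved with the offset. In the deposited linear units, ILMN_1764201 averaged 8.02 ± 2.26 units in control and 65.3 ± 25.5 units in treated cells (SD, n = 5), a ratio of 8.14. ILMN_2388484 averaged 7.46 ± 2.48 and 62.4 ± 29.9 units, a ratio of 8.36. These ratios rest on the reading of the deposited values as log10, whose base no label states. Both probes were above background, taken as a deposited log10 value over 0.2, on 5 of 5 control and 5 of 5 treated arrays. With an offset of 16 units the log2 differences were 1.73 and 1.69, and on the deposited values without further processing they were 3.00 and 3.04.

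**Figure D2:**
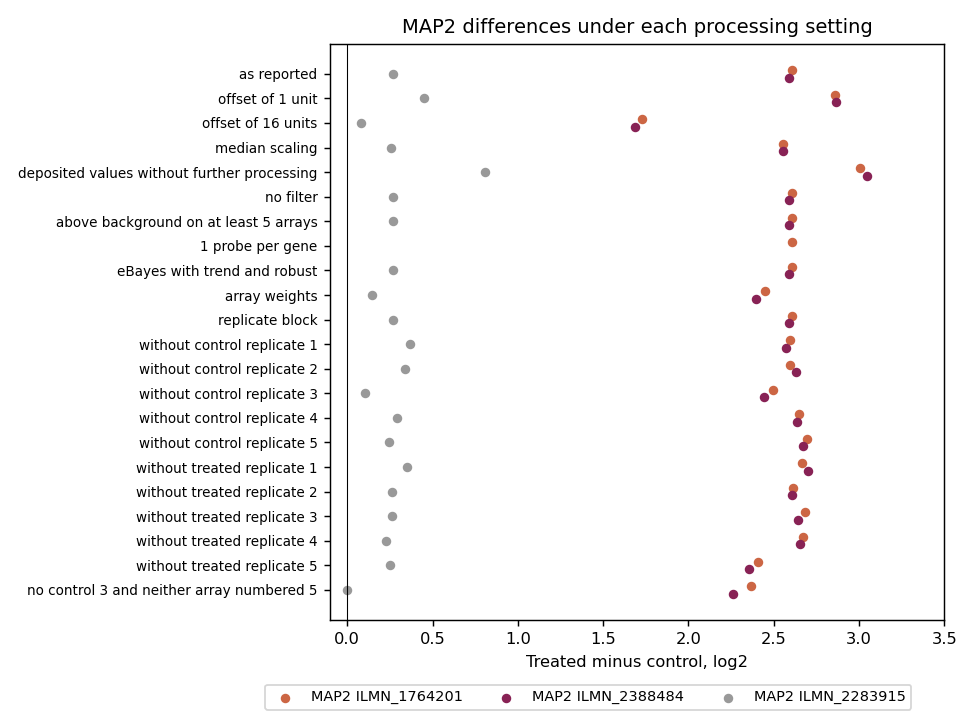
Treated minus control difference (log2, horizontal) of 3 MAP2 probes under each processing setting (vertical), the reported one first; each point is a difference of group means. The differences of ILMN_1764201 run from 1.73 to 3.00 and those of ILMN_2388484 from 1.69 to 3.04, while those of ILMN_2283915 (grey) run from 0.0007 to 0.81.

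The other MAP2 probes did not separate the groups. ILMN_2283915, annotated to the same transcript NM_002374 as ILMN_2388484, read 2.87, 2.76, 1.81, 2.54 and 2.37 on controls 1 to 5 and 2.42, 2.77, 2.79, 2.91 and 2.81 on treated arrays 1 to 5. Its difference was 0.27 ± 0.18 (SE, n = 5 per group), and it was above background on 4 control and 5 treated arrays. Probes annotated to 1 MAP2 transcript thus read differences of 0.27 and 2.59. ILMN_2283915 was dim, at 2.70 deposited units in control and 3.82 in treated cells, near the offset of 3 units. Its difference was 0.45 with an offset of 1 unit, 0.08 with an offset of 16 units and 0.81 on the deposited values. Without control 3, its lowest array, the difference was 0.10, and without control 3 and both arrays numbered 5 it was 0.0007. Where each probe lies on the transcript was not analysed here.

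ILMN_2276461, annotated to NM_001039538, read 1.58, 2.26, 2.34, 2.05 and 1.91 on controls 1 to 5 and 2.35, 2.26, 2.63, 2.06 and 3.08 on treated arrays 1 to 5. It was above background on 2 control and 4 treated arrays, so this MAP2 probe read near the background of the array. Its difference was 0.44 ± 0.20 (SE), and 3 of 5 treated arrays lay above every control array. Without treated 5 it differed by 0.29.

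Treated 5, the highest array for the brighter MAP2 probes, moved their differences little. Without treated 5 these were 2.41 for ILMN_1764201 and 2.35 for ILMN_2388484. Without control 3 and both arrays numbered 5, which left 4 treated and 3 control arrays, they were 2.37 and 2.26.

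Within the groups, the brighter MAP2 probes moved together from array to array. Deviations from the group means, which do not use the difference between the groups, were compared for all 14 pairs of probes of 1 gene over the 10 arrays. The test was an exact two-sided permutation within groups over 14400 orderings, with Benjamini-Hochberg adjustment over the 14 pairs. ILMN_1764201 and ILMN_2388484 gave Pearson's r = 0.97 (exact permutation p = 9.72e-04, adjusted p = 0.0136) and Spearman's rho = 0.93 (exact permutation p = 0.00208, adjusted p = 0.0292). Without the 2 arrays farthest from the median, r was 0.90. Points in such a pair share the array, its labelling and its normalization.

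**Figure D3:**
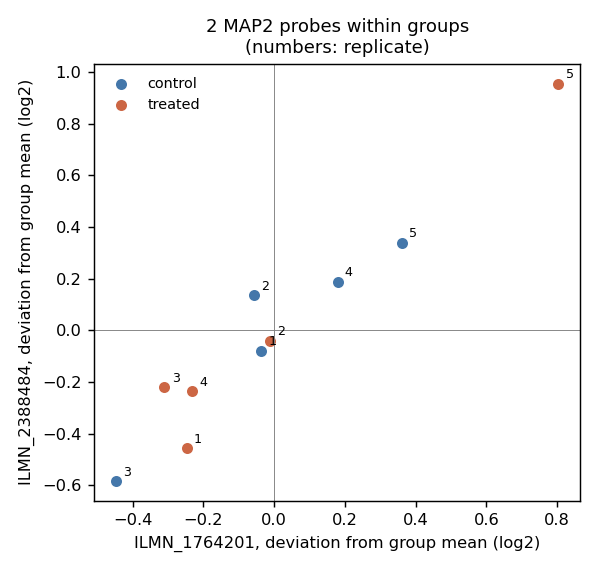
Deviation of each array from its group mean, in log2, for the MAP2 probes ILMN_1764201 (horizontal) and ILMN_2388484 (vertical); numbers are replicates, blue control, orange treated. The points lie along 1 line from control 3 at the lower left to treated 5 at the upper right (r = 0.97, n = 10).

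None of the other 13 pairs passed in this exact test. The MAP2 probe ILMN_2283915 gave r = 0.32 with ILMN_1764201 and r = 0.45 with ILMN_2388484 (exact permutation p = 0.319 and 0.171, adjusted p = 0.477 for both). ILMN_2276461 gave r = 0.36 and 0.42 with the same probes (exact permutation p = 0.375 and 0.284, adjusted p = 0.477). The pair of MAP7 probes gave r = 0.60 (exact permutation p = 0.101, adjusted p = 0.477; Spearman's rho = 0.47). In 6 of the 13 pairs at least 1 probe was above background on 3 or fewer of the 10 arrays.

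The 5 genes whose within-group pattern was most like that of ILMN_1764201 were picked as the highest of 13161 genes, so their r is a description and has no p. They were DRG1, a GTP-binding protein (r = 0.97, rho = 0.93), SLC6A6, the taurine transporter (0.96, 0.89), IRF2BP1 (0.96, 0.93), SDR16C5, a retinol-oxidising dehydrogenase (0.96, 0.92), and RASSF1 (0.95, 0.89), each over 10 arrays. Without treated 5 the r of these 5 genes ran from 0.87 to 0.93, and they ranked between 48 and 336, so the order rests on that array. Of the 5, SLC6A6 also differed between the groups, by 0.99 ± 0.16 (SE; limma adjusted p = 0.0445 over all probes), and its groups did not overlap. That call was lost in 9 of 10 fits with 1 array left out, all but the one without treated 5. Over all 10 of these fits the limma adjusted p ran from 0.0221 to 0.133. The others differed by 0.07 to 0.31, with limma adjusted p-values from 0.762 to 0.907.

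None of the 11 probes of the 6 related genes separated the groups. Their differences ran from −0.29 to 0.23, with a median of −0.05, 3 positive and 8 negative. All 15 member probes were kept by the filter. Of these 15, 2 passed the limma threshold of 0.05 adjusted over all probes, both of MAP2, where 0.150% of all 44606 kept probes passed. The same 2 had groups that did not overlap, both higher in treated cells, where 1.72% of all kept probes had (0.998% higher and 0.717% lower). MAP2 was chosen with this contrast known, so nothing is read from either count.

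MAP4, the family member of most cells outside the nervous system, is at chr3:47850695-48088848. Its probe ILMN_1708064 read 2.79, 2.61, 3.17, 3.29 and 2.80 on controls 1 to 5 and 3.07, 2.49, 2.95, 2.92 and 2.24 on treated arrays 1 to 5. The groups overlapped, with a difference of −0.20 ± 0.18 (SE, n = 5 per group), and the probe was above background on all 10 arrays. Without treated 5 it was −0.08 and without control 4 it was −0.11. The other MAP4 probe, ILMN_1734695, was above background on 1 control and 0 treated arrays. It lay between 1.58 and 2.22 over the 10 arrays, where 1.58 is the floor set by the offset, so no fold is given.

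MAPT (chr17:45894554-46028334), the gene of tau, read near background by most of its 4 probes. ILMN_2310814 read 3.23, 2.88, 2.74, 3.14 and 2.66 on controls 1 to 5 and 3.23, 2.83, 2.58, 2.59 and 1.94 on treated arrays 1 to 5. Its difference of −0.29 ± 0.21 (SE) was the most negative of the 11, and treated 5 was the lowest array. Without treated 5 the MAPT difference was −0.12, and that of MAP1S, at −0.21, was then more negative. ILMN_1800049 differed by 0.07 ± 0.13 and ILMN_2298727 by −0.05 ± 0.13, above background on 7 and 3 of the 10 arrays. ILMN_1710903 was above background on 1 control and 0 treated arrays, and no fold is given.

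MAP7 (chr6:136342734-136550422), the kinesin-1 recruiting protein of epithelia, was above background on all 10 arrays by both probes. ILMN_1712719 read 6.87, 6.49, 6.32, 6.55 and 6.52 on controls 1 to 5 and 6.63, 6.45, 6.69, 6.81 and 6.68 on treated arrays 1 to 5. Its difference was 0.10 ± 0.11 (SE, n = 5 per group). ILMN_2216815 averaged 6.78 ± 0.17 in control and 6.72 ± 0.14 in treated cells (SD, n = 5), a difference of −0.06 ± 0.10. The MAP7 probes differed in opposite directions, each by less than its standard error.

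The MAP1 genes also overlapped between the groups. MAP1S (chr19:17719480-17734513) read 5.56, 6.04, 6.54, 6.01 and 6.14 on controls 1 to 5 and 5.89, 5.88, 5.74, 5.87 and 5.71 on treated arrays 1 to 5. The difference was −0.24 ± 0.15 (SE), control 1 lay below all treated arrays, and control 3 was the highest. Without control 3 the MAP1S difference was −0.12.

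MAP1A (chr15:43510954-43531611) read 2.69, 2.52, 2.64, 2.32 and 2.46 on controls 1 to 5 and 2.76, 3.10, 2.55, 2.64 and 2.72 on treated arrays 1 to 5. It differed by 0.23 ± 0.11 (SE), with 3 of 5 treated arrays above every control. Without treated 2 the MAP1A difference was 0.14. MAP1B (chr5:72107475-72209565) spread widely in both groups. Its values ran from 1.86 to 3.59 on controls and from 1.79 to 3.31 on treated arrays, with a difference of −0.01 ± 0.35 that took either sign, from −0.21 to 0.22, when 1 array was left out.

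**Figure D4:**
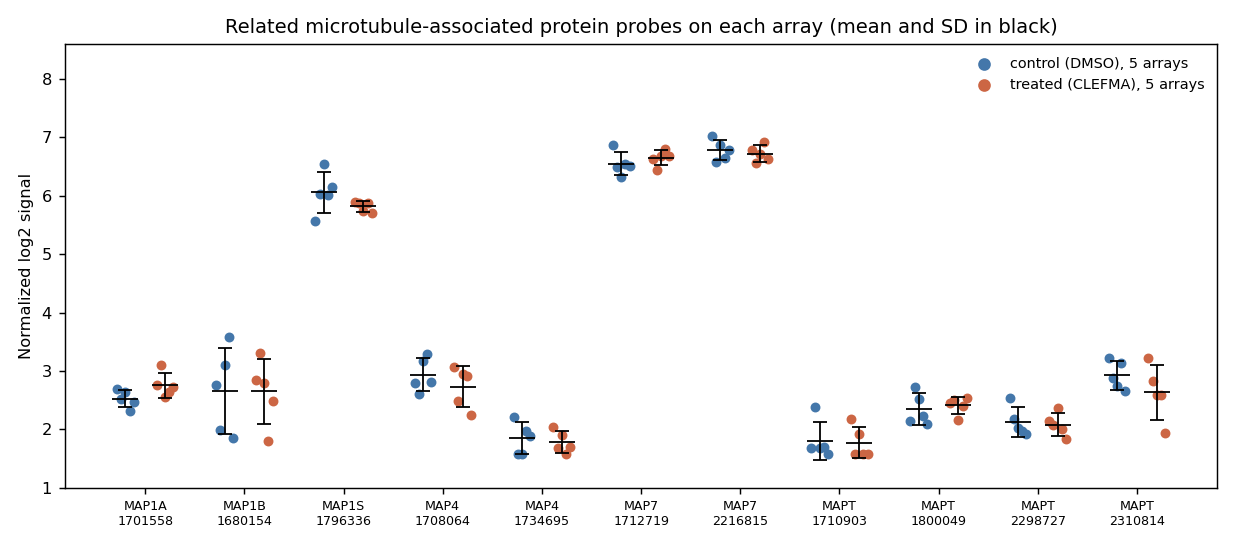
Normalized log2 signal of the 11 probes of MAP1A, MAP1B, MAP1S, MAP4, MAP7 and MAPT on each array; points are arrays, bars the mean and SD of 5 control (blue) or 5 treated (orange) arrays, and numbers under gene names are probe identifiers. The groups overlap for all 11 probes, whose differences run from −0.29 to 0.23.

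Other genes of the microtubule system, and neuronal markers as the last list, were read from 6 lists that together held 146 genes. Of these, 138 had a named probe, and 220 probes of 137 genes were kept. In limma 0 of the 220 probes passed in either direction, where 0.132% of all kept probes passed higher and 0.0179% lower. The smallest adjusted p was 0.339. At an unadjusted p under 0.05, 8 (3.64%) of the 220 were higher and 13 (5.91%) lower, against 3.86% and 3.83% of all kept probes. Differences ran from −0.50 to 0.42, where the brighter MAP2 probes differed by 2.61 and 2.59. MAP2 was chosen by that difference, and the lists with earlier results known, so nothing is read from this contrast. CDK5RAP2, given under other observations, is in none of the lists. The median over all kept probes was 0.00. The groups did not overlap for 1 list probe higher and 1 lower (0.909% of the 220), against 1.72% of all kept probes.

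Tubulins, the subunits of the polymer itself, had a median difference of 0.01 over 28 kept probes, 15 positive and 13 negative, and 0 at an unadjusted p under 0.05 in limma. TUBA4A, an alpha-tubulin, was the farthest from 0, at 0.42 ± 0.26 (SE, limma adjusted p = 0.735). It was lower on both arrays numbered 5, at 8.75 in control and 9.56 in treated cells, than on the others of its group, which ran from 9.68 to 10.14 and from 10.27 to 10.33.

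Other structural microtubule-associated proteins, among them MAP6, the EML proteins and the LC3 proteins, had 32 negative and 11 positive differences over 43 kept probes. Their median was −0.14, and 0 passed in limma. At an unadjusted p under 0.05, 6 were lower and 0 higher. The probe with the largest difference was of DST, a cytoskeletal linker, at −0.41 ± 0.17 (SE, limma adjusted p = 0.609). MTUS1, a microtubule-binding tumour suppressor candidate, was the 1 probe of this list whose groups did not overlap. It read 5.70 to 6.25 in control and 5.41 to 5.62 in treated cells, with a difference of −0.34 ± 0.10 (limma adjusted p = 0.461). The other MTUS1 probes differed by −0.13 and 0.01. MTUS1 was named after its values were seen, and 0.717% of all kept probes had groups apart and lower in treated cells.

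Proteins of the growing end, destabilisers and severing enzymes had a median of −0.10 over 35 kept probes, with 13 positive and 22 negative. At an unadjusted p under 0.05 in limma, 3 of the 35 were higher and 0 lower, against 3.86% and 3.83% of all kept probes. SPAST, the severing enzyme spastin, differed by −0.45 ± 0.24 (SE, limma adjusted p = 0.694), where control 3 read 6.32 and the other 4 control arrays 4.85 to 5.23. Without treated 5 the median of this list was −0.04.

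Enzymes that modify or fold tubulin had a median of 0.03 over 34 kept probes, 21 positive and 13 negative. At an unadjusted p under 0.05 in limma, 2 of the 34 were higher and 1 lower, against 3.86% and 3.83% of all kept probes. TTLL11, a tubulin polyglutamylase, differed by 0.32 ± 0.24 (SE, limma adjusted p = 0.782). Control 3 read 3.59, the other 4 control arrays 4.86 to 5.03, and the treated arrays 4.81 to 5.23. The other kept TTLL11 probe, ILMN_1837102, differed the other way, by −0.09 ± 0.12.

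Kinases and phosphatases that act on microtubule-associated proteins had 14 positive and 32 negative differences over 46 kept probes, with a median of −0.06. At an unadjusted p under 0.05 in limma, 0 of the 46 were higher and 3 lower, against 3.86% and 3.83% of all kept probes. CAMK2D, a calcium and calmodulin dependent kinase, differed by −0.36 ± 0.13 (SE, limma adjusted p = 0.571) by ILMN_1757060. The other kept CAMK2D probes differed by −0.11, −0.28 and −0.36. The last of these, ILMN_2319544, had the smallest adjusted p of all list probes (limma adjusted p = 0.339) and did not pass.

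Neuronal markers are given beside MAP2 because MAP2 is itself used as one. Over 39 kept probes of 24 genes their median difference was 0.03, and 0 passed in limma. At an unadjusted p under 0.05 in limma there were 3 of the 39 in each direction, against 3.86% higher and 3.83% lower of all kept probes. GAP43, a growth cone protein, differed by 0.42 ± 0.17 (SE, limma adjusted p = 0.613) and was above background on 3 control and 5 treated arrays. The other kept GAP43 probe, ILMN_1883751, differed by 0.06 ± 0.09 and was above background on 0 arrays. ENO2, the neuronal enolase, was the 1 probe whose groups did not overlap, at 5.59 to 5.90 in control and 5.94 to 6.29 in treated cells (difference 0.31 ± 0.09, limma adjusted p = 0.443). ENO2 was named after its values were seen, and 0.998% of all kept probes had groups apart and higher in treated cells.

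Of the 24 neuronal markers measured, 9 were above background on all 10 arrays and 7 on none (CHGB, ELAVL2, INA, NEFH, SYN1, SYP and UCHL1). Their summed level ran from 854 to 1589 deposited units in control and from 986 to 1469 in treated cells, but TUBB3, a tubulin, made up 85.8% to 92.3% of it. Without TUBB3 the sum ran from 106 to 142 units in control and from 120 to 159 in treated cells, and the groups overlapped. Of 10 fibroblast markers, 4 were above background on all arrays (COL1A1, DCN, LUM and PDGFRA) and 4 on none (COL3A1, FAP, POSTN and THY1). Their sum ran from 166 to 326 units in control and from 176 to 231 in treated cells, with LUM at 56.5% to 70.1% of it. Of 9 leukocyte markers measured, 4 were above background on all arrays (CD14, CD68, LYZ and MS4A1) and ITGAM on none. Their sum ran from 316 to 492 and from 306 to 429 units, with CD68 at 87.5% to 96.6% of it. The part of these markers in the MAP2 difference was not tested.

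**Figure D5:**
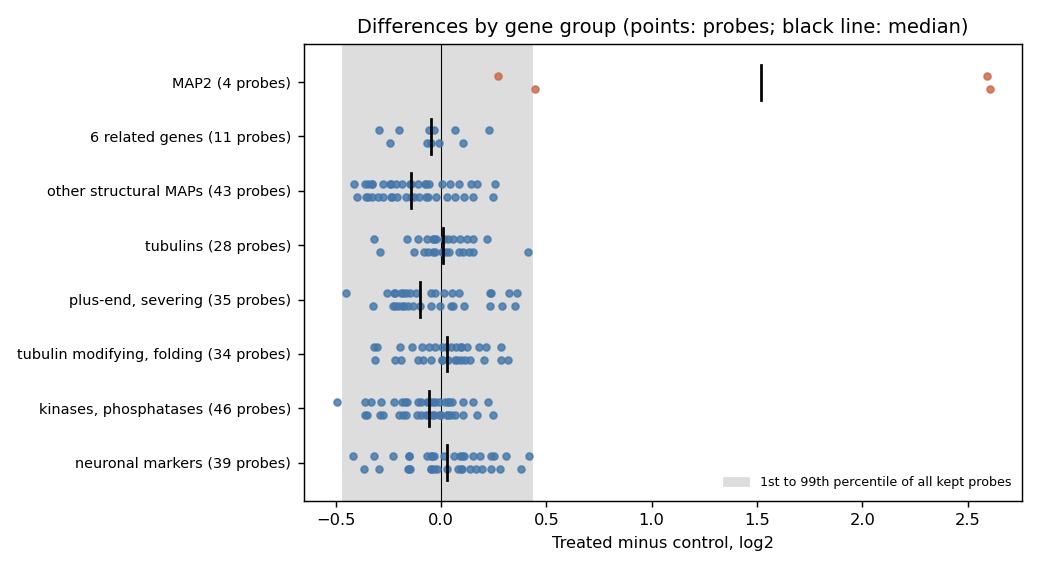
Treated minus control differences (log2, horizontal) of the MAP2 probes (orange), the 11 probes of the related genes and the kept probes of each list (blue); each point is a probe, black lines are medians, and the grey band is the 1st to 99th percentile of all kept probes (−0.47 to 0.43). The MAP2 probes at 2.61 and 2.59 lie alone at the right, and the medians of the lists lie between −0.14 and 0.03. MAP2 was chosen by this difference and the lists with earlier results known, so the contrast is a description only.

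The arrays differed little as a whole. Between 49.1% and 53.7% of the 48803 probes were above background on each, and the mean correlation of an array with the other 9 was 0.978 for control 3 and 0.986 to 0.990 for the others. Control 3 is the array that read lowest for both bright MAP2 probes. Without it their differences were 2.49 and 2.44. Precision here is limited by there being 5 arrays in a group. A change in the number of cells with a transcript, as for the MAP2 rise, and a change in its amount per cell cannot be told apart in such bulk samples.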

How the data were processed

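RNA of NCI-H441 cells was measured on 10 Illumina bead arrays (5 control, 5 treated), per the labels. The deposited value table holds log10 values; what software, background method and normalization the authors used is unknown here. No label names the base of the log; 10 was read from the span of the values (highest value per array 3.65 to 3.79, lowest −4.56 to −4.39). The offset and the background limit were carried over from an earlier analysis of these data, which had compared the value table with the scanner table. The scanner table has 10 columns that match no sample's labels and was not read for the values given here, which rest on it only through those settings. Deposited values were turned to linear units, 3 units were added, and log2 values were quantile normalized. Probes whose mean exceeded the 25th percentile of all values (1.59) were kept, 44606 in all; 19267 of them were above background on fewer than 5 arrays.

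Gene names came from the platform annotation, updated through Entrez identifiers: 27578 had 1 symbol, 13 several, and 21212 are unnamed here. The group comparison used limma 3.58.1 under R 4.3.3 (two-sided, no covariate), with Benjamini-Hochberg adjustment over all kept probes; the fit was tested on simulated data. Members and lists were chosen with earlier results of these data known. Named genes were all member probes and, from each list, up to 4 passing probes and the probe with the largest difference above background on at least 5 arrays, plus the 5 genes most like MAP2. Promoter sequences are from RefSeq (GRCh38.p14). Alternatives covered the offset, normalization, filter, probe rule, variance model, array weights, replicate block and each array left out; 1, without control 3 and both arrays numbered 5, was added after the data were seen. Figures were drawn with matplotlib 3.10.9.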

Additional observations from a re-analysis of the deposited data

Results flagged for a closer look

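In each group of 5 arrays, the highest and lowest value of every member probe was set against Dixon's critical value of 0.71 for the gap to its nearest neighbour over the range of the group. Of 30 such sets, 3 (10%) were past it, where chance gives about 5%; probes of 1 gene are not independent. The MAP2 probe ILMN_1764201 was at 6.85 on treated 5, where the next array was at 6.03. The gap of the MAP2 probe ILMN_2388484, at 6.91 on the same array, was just short of the critical value (0.705). The MAP2 probe ILMN_2283915 was at 2.42 on treated 1, below 2.77 on the next array. The MAPT probe ILMN_1710903 was at 2.38 on control 2, the 1 array of 10 on which it was above background. Both bright MAP2 probes were higher in treated cells without treated 5 as well (2.41 and 2.35).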

How the results depend on the processing

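Across 21 alternatives the differences of the MAP2 probes ILMN_1764201 and ILMN_2388484 were positive in each that kept them, which their choice by this difference fixes in part. The size depended on the offset. ILMN_1764201 and ILMN_2388484 differed by 1.73 and 1.69 with an offset of 16 units and by 3.00 and 3.04 on the deposited values. With 1 array left out they ran from 2.41 to 2.69 and from 2.35 to 2.70. On the deposited values the dim MAP2 probes ILMN_2276461 and ILMN_2283915 differed by 4.00 and 0.81, where values at the floor of the table enter with no offset; with 1 array left out they ran from 0.29 to 0.55 and from 0.10 to 0.37. With 1 probe per gene only ILMN_1764201 of MAP2 was tested. Adding the scanner background back was planned and not run, because the columns it needs match no sample's labels. None of the 11 probes of the related genes passed in any alternative, and 219 of 222 of their values moved by less than 1 SD; the 3 others came from the deposited values.

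No list had a gene that passed in any of the 21 alternatives. List medians were negative in all 21 for the other structural proteins (−0.27 to −0.06), the growing-end and severing proteins (−0.16 to −0.03) and the kinases and phosphatases (−0.11 to −0.03). The 21 refit the same arrays and some genes have several probes, so a shared sign is not repeated evidence, and no list was tested as a set. The medians took either sign for tubulins (−0.03 to 0.06), tubulin enzymes (−0.03 to 0.07) and neuronal markers (−0.01 to 0.29).

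Over all probes, 59 were higher and 8 lower as reported. The counts were 39 and 4 with an offset of 1 unit, 24 and 1 on the deposited values, 35 and 5 without a filter, and 28 and 0 with the replicate number as a block. They were 84 and 5 with trended robust variances, 77 and 7 with a background filter, 73 and 10 with array weights, 45 and 5 with an offset of 16 units, and 58 and 5 without control 3 and both arrays numbered 5. With 1 array left out, 33 to 57 were higher and 1 to 6 lower. Over all kept probes, deviations of same-numbered arrays correlated at −0.11, 0.14, 0.09, −0.06 and 0.17 for numbers 1 to 5. Arrays of unlike number were not compared in this way, so whether the numbers pair the arrays was not tested. The cause of these changes in the counts was not tested.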

Other observations

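Outside the lists, CDK5RAP2, a centrosomal protein that anchors the ring complex from which microtubules grow, was higher in treated cells by 2 of its 3 kept probes. It was picked after its values were seen. ILMN_2415529 read 4.19, 4.30, 3.94, 4.57 and 4.39 on controls 1 to 5 and 5.67, 5.78, 5.79, 5.58 and 6.91 on treated arrays 1 to 5, a difference of 1.67 ± 0.23 (SE, limma adjusted p = 0.0190). It passed in 6 of 10 fits with 1 array left out (limma adjusted p from 0.00104 to 0.0749), and not without control 1, control 2, treated 2 or treated 3. ILMN_1655990 differed by 1.42 ± 0.32 (limma adjusted p = 0.221), with groups that did not overlap, and ILMN_1725235 by 0.30 ± 0.16 (limma adjusted p = 0.691). As with MAP2, probes annotated to 1 gene gave different sizes, and treated 5 was the highest array for both of the higher CDK5RAP2 probes.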
